A study of Mus musculus with 23 samples.

Results

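Cd82, Adamts1, Spon2 and Ppfibp2 are 4 genes that lay lower at both levels of anemia in the hippocampus of XY mouse pups. They were picked by that pattern from the 24421 rows of a gene count table. They are all of the genes that edgeR called lower than non-bled controls both in moderately and in severely anemic males at an adjusted p below 0.05. That is 4 of the 15475 genes tested (0.0258%), and 0 genes were called higher in both. All 4 passed the low-count filter.

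Polyadenylated RNA of the hippocampus was sequenced on postnatal day 14 in 23 libraries of 6 groups. Non-bled controls (NBC) of each sex had only been pricked at the neck with a needle. Pups with moderate phlebotomy-induced anemia (mPIA) were bled from the facial vein from postnatal day 3, with 5.25 µl per g taken 2 times daily, toward a haematocrit (the share of red cells in blood) of 25%. Pups with severe anemia (sPIA) were bled in the same way toward 18%, and both were then bled by 3.5 µl per g daily. Each group has 4 libraries except NBC males, which have 3 (numbered 2, 3 and 4); no strain or genotype is stated in the labels. The mPIA and sPIA comparisons of a sex share their NBC libraries.

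Cd82, Adamts1 and Spon2 encode proteins of the cell surface or the matrix around cells, and Ppfibp2 a protein inside the cell. Tetraspanins such as Cd82 (also known as KAI1) are membrane proteins that span the membrane several times and organise integrins and growth factor receptors into microdomains. Cd82 is best known as a suppressor of metastasis. Adamts1 encodes a secreted metalloproteinase with thrombospondin repeats that cleaves proteoglycans of the matrix, among them aggrecan and versican, and that can bind the vessel growth factor VEGF. Spon2 encodes spondin 2 (mindin), a secreted matrix protein that binds integrins and takes part in innate immunity. Ppfibp2 encodes liprin-beta-2, a cytoplasmic scaffold protein of the liprin family, whose alpha members assemble presynaptic active zones.

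Cd82 lies on chromosome 2 (mm10, 93419111 to 93463140, minus strand), Adamts1 on chromosome 16 (85793827 to 85803113, minus strand), Spon2 on chromosome 5 (33198184 to 33218455, minus strand) and Ppfibp2 on chromosome 7 (107595207 to 107748583, plus strand). All are protein-coding in GENCODE release M21. Counts are per gene, so they do not tell exon from untranslated region or one transcript from another. Cyb5r2 overlaps Ppfibp2 on the opposite strand with 0 to 7 counts per library, and Gm10804 overlaps Cd82 on the opposite strand with 0 counts. Mir7001 overlaps Cd82 on the same strand with 0 to 1 counts. Ppfibp2 is also overlapped by 5330417H12Rik on the opposite strand and Gm44772 on the same strand, whose counts are not given here. Whether counting used the strand is not stated in the labels, so reads of such overlaps cannot be told apart.

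Because the genes were grouped by a shared direction under anemia, the sequence just before their transcript starts is shown with the core letters bound by the oxygen-regulated factor HIF (ACGTG or GCGTG, either strand) in capitals. RefSeq (GRCm38.p6) gave windows for 3 of the 4 genes. It had 4 starts for Cd82, 1 for Adamts1 and 4 for Ppfibp2, and the start nearest a principal GENCODE start was taken. That start lay 0, 0 and 215 bases from it, and the other starts are not shown. The windows shown are each 200 bases long and 5′ to 3′ on the gene's strand. They are chr2:93462503-93462702 for Cd82, chr16:85803114-85803313 for Adamts1 and chr7:107594851-107595050 for Ppfibp2.
Cd82: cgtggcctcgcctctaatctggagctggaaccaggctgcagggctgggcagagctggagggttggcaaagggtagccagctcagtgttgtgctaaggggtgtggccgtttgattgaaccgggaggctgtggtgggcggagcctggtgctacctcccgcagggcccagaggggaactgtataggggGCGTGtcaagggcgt
Adamts1: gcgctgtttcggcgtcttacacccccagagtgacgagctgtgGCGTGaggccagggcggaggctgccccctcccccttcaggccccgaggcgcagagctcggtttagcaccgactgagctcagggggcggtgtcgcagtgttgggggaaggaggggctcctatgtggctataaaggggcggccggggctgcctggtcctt
Ppfibp2: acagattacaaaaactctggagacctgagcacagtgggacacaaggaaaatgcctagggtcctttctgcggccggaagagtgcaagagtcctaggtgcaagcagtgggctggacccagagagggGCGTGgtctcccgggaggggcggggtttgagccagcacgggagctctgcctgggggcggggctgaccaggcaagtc
Each window holds 1 match to GCGTG and 0 to ACGTG. Of the 32851 RefSeq windows of this length, 24.7% hold GCGTG and 34.1% hold at least one of the HIF core forms. The letters of an AP-1 site (TGANTCA, in 5.48% of windows) and of a cAMP response element (TGACGTCA, in 1.47%) are not in these 3 windows. A match describes the letters and is not a binding site.

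Library totals lay between 15234793 and 26355712 counts, apart from mPIA female 3 with 44362539. Slc17a7, the vesicular glutamate transporter of hippocampal excitatory neurons, lay at 1316 to 1903 CPM, the count scaled to a common library total after TMM normalization, in the 23 libraries. Choroid plexus RNA varied widely between libraries. Ttr, the transthyretin gene and most abundant choroid plexus transcript, exceeded 1000 CPM in NBC males 3 and 4 (2464 and 4378), NBC female 2 (2025) and sPIA female 2 (1324), and was at or below 231 CPM in the other 19 libraries. Libraries carry codes of unstated meaning that begin with a number in NBC and mPIA females, with M in mPIA males and with P in the remaining groups. Code series and group therefore cannot be told apart for severe anemia in females or moderate anemia in males. The same holds for NBC males against NBC females and for sPIA against mPIA in either sex. The sample descriptions also carry S numbers of unstated meaning, which are lower in every sPIA library than in all other libraries. By these numbers severe anemia cannot be told apart from the series in males or in females.

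**Figure D1:**
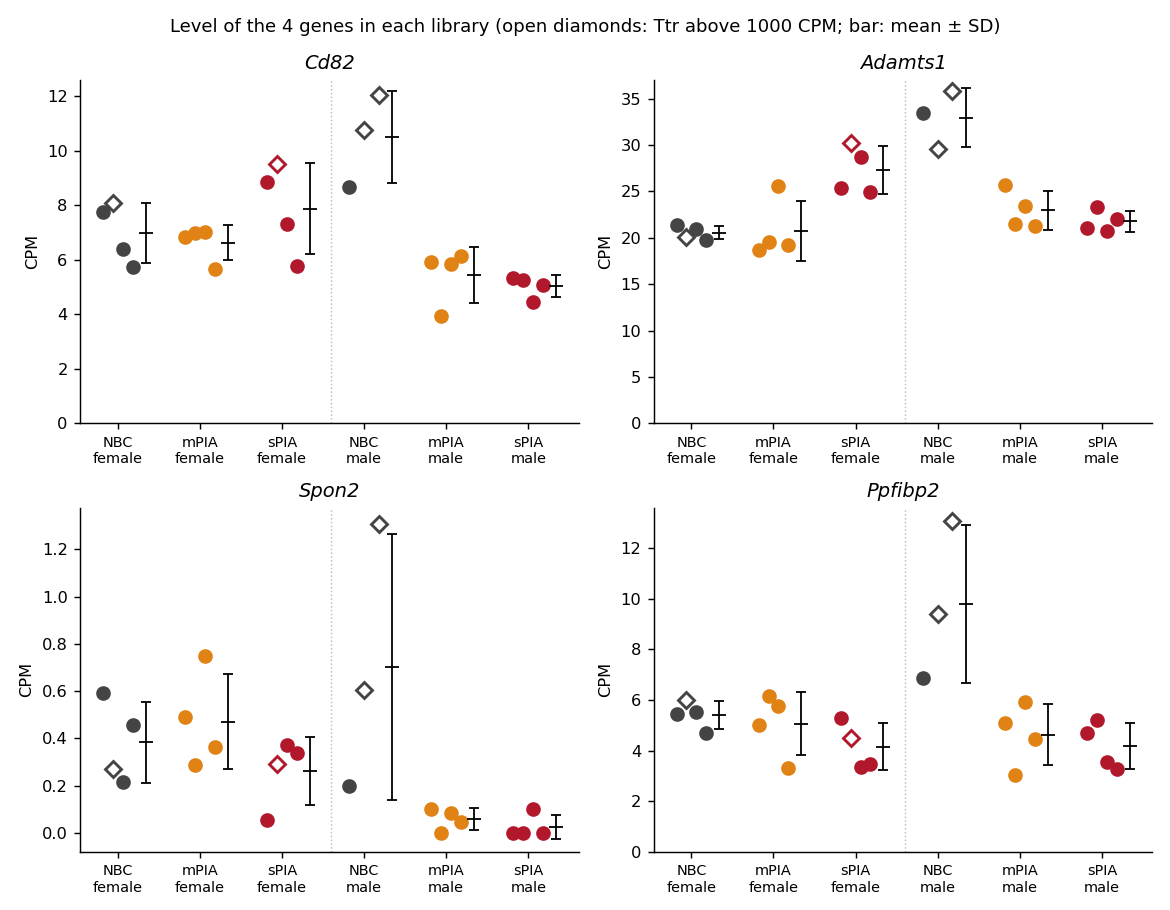
Level of each gene in CPM (vertical axis) in every library of the 6 groups (horizontal axis); open diamonds mark the 4 libraries with Ttr above 1000 CPM, and bars give the mean ± SD. NBC males are the highest group for all 4 genes, and for Adamts1 the sPIA females also lie above the other female groups' means.

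Among XY pups the non-bled controls stood above the bled pups for each gene. The male values chose the genes, so they are given as a description and no test rests on them. NBC males 2, 3 and 4 had 8.68, 10.8 and 12.04 CPM of Cd82. In mPIA males 1 to 4 it lay at 5.91, 3.93, 5.85 and 6.15 CPM, and in sPIA males at 5.35, 5.26, 4.46 and 5.09 CPM. No bled male reached the lowest control. The log2 change of the tetraspanin gene was -0.94 (SE 0.18) in mPIA males and -1.06 (SE 0.18) in sPIA males, about 1.92-fold and 2.08-fold lower than NBC.

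Adamts1, the matrix protease, had the highest level per kilobase of the 4 genes in NBC males. Its level was 33.5, 29.5 and 35.8 CPM in NBC males 2, 3 and 4. The bled males lay between 20.8 and 25.7 CPM, with 25.7, 21.5, 23.4 and 21.2 CPM in mPIA males and 21.1, 23.3, 20.8 and 22.1 CPM in sPIA males. The ranges of controls and bled males did not overlap. Its log2 change was -0.52 (SE 0.11) in mPIA and -0.59 (SE 0.11) in sPIA males.

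NBC males 2, 3 and 4 had 6.86, 9.42 and 13.1 CPM of Ppfibp2, the liprin gene. Its level was 5.09, 3.05, 5.93 and 4.45 CPM in mPIA males and at 4.70, 5.21, 3.55 and 3.27 CPM in sPIA males. The controls differed more among themselves than the bled groups did, with an SD of 3.13 CPM (n = 3) against 1.22 and 0.926 CPM (n = 4 each). The log2 changes were -1.08 (SE 0.24) and -1.22 (SE 0.24).

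Spon2, the spondin gene, was barely detected. NBC males 2, 3 and 4 held 4, 16 and 25 counts, mPIA males 2, 0, 2 and 1, and sPIA males 0, 0, 2 and 0. In the libraries with 0 counts a level of up to 0.139 CPM in mPIA male 2 and of 0.138, 0.152 and 0.161 CPM in sPIA males 1, 2 and 4 remains possible (3 counts). Summed over each group, the rate in mPIA males was 0.085 times that in NBC males (exact 95% interval 0.0263 to 0.213) and in sPIA males 0.0367 times (0.00431 to 0.14). These intervals cover counting error only and are no test, since these counts chose the gene, while the controls alone ranged from 0.197 to 1.31 CPM. The gene passed the filter through 4 libraries above 0.508 CPM, NBC males 3 and 4, NBC female 1 and mPIA female 3.

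Of all genes tested, 0.498% were called lower in mPIA males and 0.11% in sPIA males, and 4.61% and 3.1% were lower without overlap of the groups, as all 4 genes were by choice. The adjusted p values by which the genes were chosen (edgeR) were, for mPIA and sPIA, 0.0168 and 0.0102 for Cd82, 0.018 and 0.0111 for Adamts1, 0.029 and 0.0194 for Ppfibp2 and 0.0419 and 0.0308 for Spon2. Spon2 was thus the gene just inside the threshold. Just outside it were Amotl1, a scaffold of the angiomotin family (0.0387 and 0.0809), Cbl, a ubiquitin ligase (0.0821 and 0.0332), and Frem1, a basement membrane protein (0.0572 and 0.0837). Their log2 changes in mPIA and sPIA males were -0.42 and -0.41 for Amotl1, -0.31 and -0.42 for Cbl, and -0.92 and -0.97 for Frem1.

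Single mice decided how many of the 4 genes were inside the threshold. In mPIA males it was 0 of 4 without NBC male 4 or mPIA male 2, 1 without mPIA male 4 and 2 without NBC male 3 or mPIA male 1. In sPIA males it was 0 of 4 without NBC male 4 and 2 without sPIA male 4. Calls over all genes, 101 in mPIA and 30 in sPIA males with every mouse, also varied widely over left-out mice. Without NBC male 4 no gene of all tested was called in mPIA males. The counts of members are therefore not particular to these genes. The changes themselves stayed negative in all these fits. Every bled male lay below every control for each gene, by choice, so leaving out a mouse could hardly turn a sign. Without NBC male 4 they were -0.85, -0.47, -0.83 and -2.72 for Cd82, Adamts1, Ppfibp2 and Spon2 in mPIA males, and -0.95, -0.53, -0.97 and -3.76 in sPIA males.

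**Figure D2:**
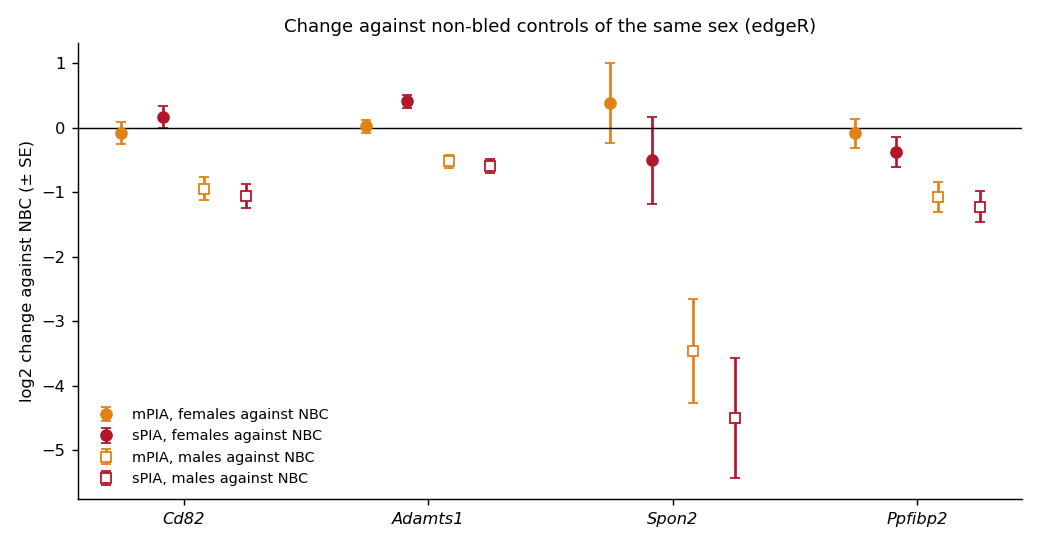
Log2 change against NBC of the same sex (vertical axis, edgeR, bars ± SE) of the 4 genes (horizontal axis) in mPIA and sPIA pups; filled circles are females, open squares males. The male values, which chose the genes, all lie below 0, while in females Adamts1 in sPIA lies above 0 (0.41) and is the only female change against NBC that passed the test.

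The log2 change of sPIA against mPIA males was -0.11 (SE 0.17) for Cd82, -0.07 (SE 0.10) for Adamts1, -0.15 (SE 0.23) for Ppfibp2 and -1.04 (SE 1.26) for Spon2, where 2 counts stood against 5. The ranges of the bled male groups overlapped for all 4 genes.

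The 12 female libraries were not among the groups compared in the choice, and anemia effects were tested there. They were not fully apart from it, since a shared estimate of the spread was fitted over all 23 libraries. Spon2 also passed the filter partly through NBC female 1 and mPIA female 3. Moderate anemia was called for 0 of 4 genes (edgeR), with 0 of 4 at an unadjusted p below 0.05 and 0 of 4 by DESeq2 or limma-voom. Over all genes 0.00646% were called in that comparison. Cd82 lay at 7.74, 8.09, 6.39 and 5.73 CPM in NBC females and at 6.85, 6.97, 7.01 and 5.68 CPM in mPIA females. These groups overlapped almost fully, with a log2 change of -0.07 (SE 0.17). Changes were -0.09 (SE 0.23) for Ppfibp2, 0.02 (SE 0.10) for Adamts1 and 0.38 (SE 0.62) for Spon2, each with adjusted p = 1 (edgeR). For Cd82 and Ppfibp2 these female values lie nearer to 0 than the male ones. The male change minus the female one was -0.87 (SE 0.25) for Cd82, -0.54 (SE 0.15) for Adamts1, -0.99 (SE 0.33) for Ppfibp2 and -3.83 (SE 1.03) for Spon2. Since the male side had chosen the genes, these differences from the same fit are a description and no p is read from them.

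In severely anemic females 1 of the 4 genes was called, Adamts1, and it rose. NBC females 1 to 4 lay at 21.3, 20.1, 20.9 and 19.8 CPM and sPIA females at 25.3, 30.2, 28.7 and 25.0 CPM, so that 4 of 4 sPIA libraries lay above every control. The means were 20.5 ± 0.711 and 27.3 ± 2.55 CPM (SD, n = 4 each), a 1.33-fold difference (log2 change 0.41, SE 0.10, edgeR adjusted p = 0.0061). In this comparison 8.12% of all genes were called higher, and 9.85% were higher without overlap of the groups. Leaving out any one of the 8 mice kept the call. It was lost when the 4 libraries with high Ttr were left out, at a change of 0.35 (adjusted p = 0.0511, edgeR). Marker lists of several cell types also moved in sPIA females. The 10 endothelial markers summed to 266 to 280 CPM in NBC females and 314 to 355 CPM in sPIA females, with 3 called higher. The 10 astrocyte markers summed to 6188 to 6394 and 6605 to 8043 CPM, with 3 called higher and 1 lower, and the 10 excitatory neuron markers to 5959 to 6702 and 6562 to 7370 CPM, with 3 higher and 2 lower. Interneuron markers were lower without overlap, at 1220 to 1306 against 962 to 1139 CPM, with 4 of 10 called lower. Immediate early genes, which follow neuronal activity, lay at 353 to 407 against 277 to 350 CPM, with 3 of 10 called lower, and of 12 targets of HIF 3 were called higher and 2 lower. The part of these cells in the Adamts1 result was not tested. Code series and S numbers cannot be told apart from severe anemia in this comparison.

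Severe anemia also stood above moderate anemia for Adamts1 in females. The mPIA females lay at 18.7, 19.5, 25.5 and 19.2 CPM, where mPIA female 3 reached the sPIA range. Between sPIA and mPIA the log2 change was 0.39 (SE 0.10, edgeR adjusted p = 0.00783), in a comparison that called 8.67% of all genes higher. The order of the female groups was thus sPIA above mPIA and NBC, and the latter did not differ beyond their spread. Here too severe anemia and the series of the libraries cannot be told apart.

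The other genes did not pass in severely anemic females. Cd82 lay at 8.86, 9.52, 7.33 and 5.78 CPM, with sPIA females 1 and 2 above all controls and the others within their range. Against NBC the value was 0.17 on the log2 scale (SE 0.17, edgeR adjusted p = 0.55). Ppfibp2 lay at 5.44, 5.99, 5.52 and 4.69 CPM in NBC females, at 4.99, 6.17, 5.78 and 3.32 CPM in mPIA females and at 5.30, 4.49, 3.36 and 3.48 CPM in sPIA females. For this gene 3 of 4 sPIA libraries lay below all controls, at a log2 change of -0.38 (SE 0.23, edgeR adjusted p = 0.287). Spon2 had 10, 5, 4 and 7 counts in NBC, 10, 5, 34 and 6 in mPIA and 1, 6, 8 and 6 in sPIA females. The summed rate of Spon2 in sPIA females was 0.71 times that in NBC females (exact 95% interval 0.38 to 1.31, counting error only; adjusted p = 0.679, edgeR). Severe against moderate anemia gave 0.25 (SE 0.17, adjusted p = 0.35) for Cd82, -0.29 (SE 0.23, adjusted p = 0.422) for Ppfibp2 and -0.89 (SE 0.63, adjusted p = 0.376) for Spon2.

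Set side by side over the 6 groups, the NBC males had the highest mean for each gene and the bled males lay within or below the range of females. For Ppfibp2 all 3 NBC males lay above all 12 females, whose highest level was 6.17 CPM, while the 8 bled males lay at 3.05 to 5.93 CPM. For Adamts1 the 8 bled males, at 20.8 to 25.7 CPM, lay within the female range of 18.7 to 30.2 CPM, and 2 of 3 NBC males lay above it. For Cd82 5 of 8 bled males lay below every female, the lowest of which had 5.68 CPM, and 2 of 3 NBC males above every female. Log2 differences of NBC males from NBC females were 0.59 (SE 0.18) for Cd82, 0.68 (SE 0.11) for Adamts1, 0.85 (SE 0.24) for Ppfibp2 and 0.87 (SE 0.65) for Spon2. NBC males lay above NBC females without overlap for Cd82, Adamts1 and Ppfibp2, as 9.97% of all genes did in that direction. These values too use the controls that chose the genes and carry no test.

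Ordered by group mean, Cd82 ran from NBC males (10.5 CPM) through sPIA, NBC and mPIA females (7.87, 6.99 and 6.63 CPM) to mPIA and sPIA males (5.46 and 5.04 CPM). Each neighbouring pair in that order overlapped. Adamts1 ran from NBC males (32.9 CPM) and sPIA females (27.3 CPM) to mPIA males (22.96 CPM), sPIA males (21.8 CPM), mPIA females (20.7 CPM) and NBC females (20.5 CPM), again with overlap at each step. For Ppfibp2 the step from NBC males (9.79 CPM) to NBC females (5.41 CPM) had no overlap, and the later steps, down to 4.16 CPM in sPIA females, did. Spon2 ran from 0.703 CPM in NBC males to 0.0253 CPM in sPIA males with overlap between all neighbours. Per kilobase of exon the genes differed in level, with 6.21 CPM per kb for Adamts1, 3.49 for Cd82, 0.927 for Ppfibp2 and 0.239 for Spon2 in NBC males.

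Markers of choroid plexus and meninges moved with the male comparison. In bulk tissue, fewer cells of a type and less RNA per cell cannot be told apart. All 10 choroid plexus markers had rows, and their summed level was 16.9, 2624 and 4671 CPM as lowest, median and highest NBC male, 13.95 to 49.1 CPM in mPIA males and 19.4 to 162 CPM in sPIA males. In NBC, mPIA and sPIA females it was 40.6 to 2111, 28.4 to 258 and 18.5 to 1404 CPM. Ttr was detected in every library, and Folr1, Kcnj13 and Aqp1, further markers of that epithelium, were at 0 in 2 libraries each. The 10 meningeal fibroblast markers summed to 235 to 682 CPM in NBC males, 160 to 268 CPM in mPIA males and 227 to 376 CPM in sPIA males. All 10 members of each list had a negative change in mPIA and in sPIA males, and 0 were called, beside a median change over all genes of 0.01 and 0.00. The 8 markers of ependyma, the ciliated lining of the ventricles, summed to 18.8, 31.2 and 48.05 CPM in NBC males 2, 3 and 4. Their sum was 11.6 to 16.3 CPM in mPIA males, where 3 were called lower, and 20.8 to 27.2 CPM in sPIA males. Other lists leaned one way too. In mPIA and sPIA males 11 and 10 of 11 myelinating oligodendrocyte markers were negative. So were 10 and 7 of 10 microglial and 8 and 9 of 10 astrocyte markers. Their medians lay between -0.13 and -0.03, and 0 were called. Immediate early genes were positive in 10 of 10 in mPIA males (median 0.51, 1 called higher) and negative in 8 of 10 in sPIA males. How far any of these cells contribute to the male values of the 4 genes was not tested.

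NBC male 2, with Ttr at 1.23 CPM and choroid plexus markers at 16.9 CPM, was the control without raised choroid plexus RNA. In that library, as in the other controls, all 4 genes lay above each of the 8 bled males, an order that the choice of the genes favours. Its level was 1.41 times the highest bled male for Cd82, 1.30 times for Adamts1, 1.16 times for Ppfibp2 and 1.92 times for Spon2, the last from 4 counts against 2. Without the 4 libraries of high Ttr this mouse was the only male control, so that the male values then rest on it. The log2 changes were then -0.67 and -0.78 for Cd82, -0.55 and -0.61 for Adamts1, -0.57 and -0.71 for Ppfibp2 and -1.67 and -2.70 for Spon2 in mPIA and sPIA males. With the summed choroid plexus markers as a covariate they were -0.68 and -0.86, -0.52 and -0.59, -0.65 and -0.91, and -3.10 and -4.21 in the same order. With this covariate none of the 4 genes stayed inside the threshold in mPIA males, and only some did in sPIA males. Both settings were chosen after the data had been seen.

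**Figure D3:**
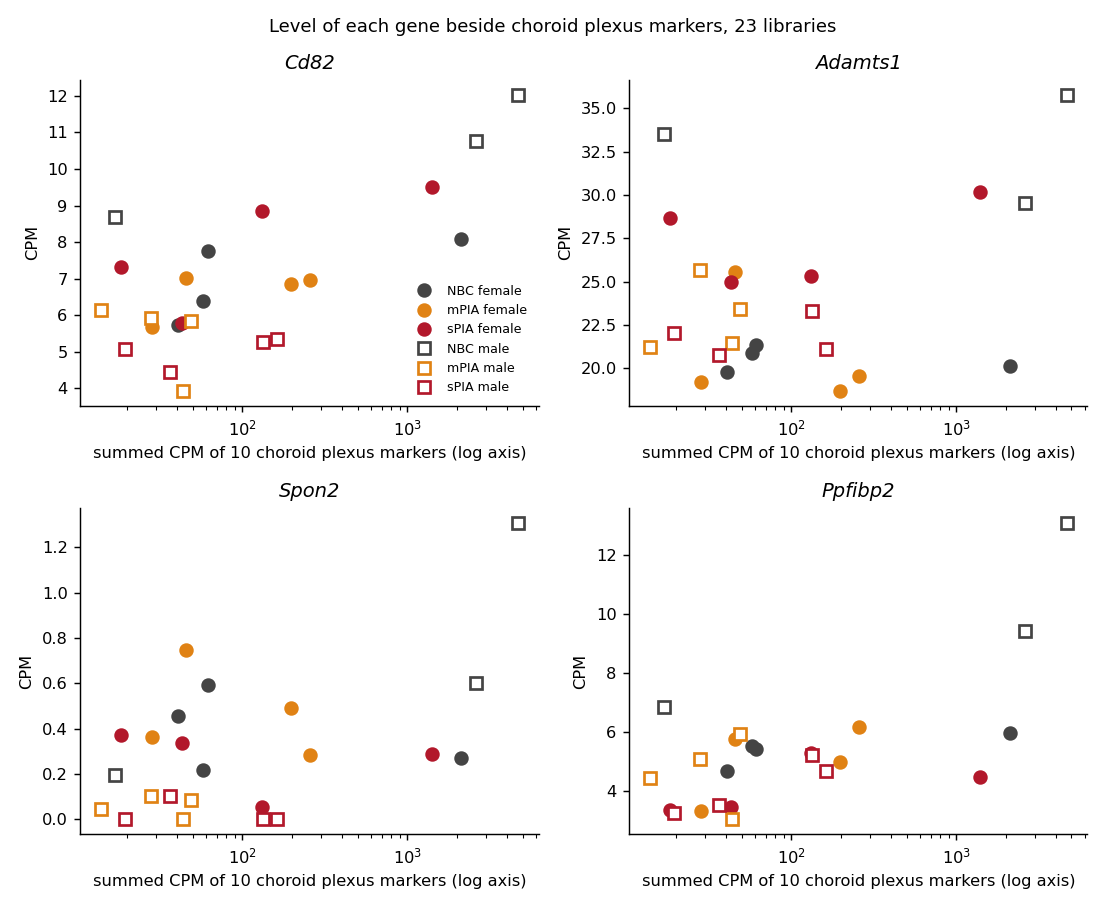
Level of each gene in CPM (vertical axis) against the summed CPM of 10 choroid plexus markers (horizontal log axis) in the 23 libraries; circles are females, open squares males, colours the anemia level. The NBC male at the left (16.9 CPM of markers) lies above all bled males for each gene, and NBC males 3 and 4 lie at the far right.

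NBC male 3 and sPIA male 4 share the opening of their library code (P14). In that pair Cd82 had 10.8 and 5.09 CPM, Adamts1 at 29.5 and 22.1 CPM, Ppfibp2 at 9.42 and 3.27 CPM, and Spon2 at 16 and 0 counts. With 1 library on each side this pair has no replicate check. For each gene every sPIA male lay below every NBC male, an order that the choice of the genes favours. Any pair of an NBC and an sPIA male would therefore show it. P14 also opens the code of sPIA female 4.

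Across libraries the genes tracked each other unevenly. Pearson's r of log2 CPM over all 23 libraries was positive in 6 of 6 pairs (0.30 to 0.76), to which the shared choice in males contributes. Over the 12 females 2 of 6 pairs were positive (-0.37 to 0.51). Taken as deviations from each group's mean, Cd82 and Ppfibp2 had r = 0.77 over 23 libraries (Spearman's rho 0.72) and 0.73 over the 12 females (rho 0.69). The remaining 5 pairs had r between 0.17 and 0.38 over 23 libraries by that measure. Over the 12 females these pairs ran from -0.38 (Spon2 with Ppfibp2) to 0.50 (Adamts1 with Spon2). These are descriptions over points that share library and depth.

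The marker lists set the genes apart from each other. Among the 12 females, log2 levels of Cd82 went with ependymal markers (r = 0.79) and choroid plexus markers (r = 0.66), and those of Ppfibp2 with markers of oligodendrocyte precursors (r = 0.79) and of myelinating oligodendrocytes (r = 0.70). For Adamts1 the highest of the 13 lists were hippocampal excitatory neurons (r = 0.63) and endothelium (r = 0.61), the lowest were interneurons (r = -0.63) and oligodendrocyte precursors (r = -0.58), and r with choroid plexus was -0.00. Apart from choroid plexus for Adamts1, these values are the extremes of the 13 lists for each gene. They are over 12 points that mix the female groups. Group means were not removed, so shifts between the groups enter them. Spon2, with few counts, is left out here.

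The genes most alike in pattern over the 23 libraries were also found, 3 for each member. The 12 females were part of that ranking, so r over them is no separate check. For Cd82 they were Pdpn, the membrane glycoprotein podoplanin (r = 0.84, and 0.74 over the 12 females), Rassf8 (0.81 and 0.69) and Ltbp3, which binds latent TGF-beta (0.80 and 0.61). Ppfibp2 was most like Sned1, a matrix protein (0.84 and 0.63), Ltbp3 again (0.83 and 0.78) and Tmbim1 (0.83 and 0.82). Adamts1 was most like Amotl1 (0.82 and 0.75), the zinc finger gene Zfp111 (0.79 and 0.74) and Pdcd6ip, the membrane remodelling protein ALIX (0.77 and 0.90). Taken as deviations from each group's mean over the 23 libraries, r of Adamts1 with these genes was 0.26, 0.52 and 0.60. By that measure r was 0.66, 0.60 and 0.72 for Cd82 and 0.75, 0.67 and 0.72 for Ppfibp2, in the order named. Spon2 was most like Lsm10, of the histone mRNA processing machinery (0.82 and 0.81), Imp4 (0.77 and 0.40) and Svep1, a matrix protein (0.77 and 0.26). The Spon2 values rest on 0 to 34 counts per library, and as deviations from each group's mean they were 0.47, 0.46 and 0.48.

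Families of the 4 genes were described from lists, leaving out the genes themselves. Of 25 further tetraspanins tested, 0 were called in mPIA females, 1 was higher and 1 lower in sPIA females, 1 was lower in mPIA males and 0 were called in sPIA males. Over all genes 8.12% were called higher and 7.86% lower in sPIA females, 0.653% were called in mPIA males and 0.194% in sPIA males, and the counts of each family below stand beside these shares. Tspan12, a regulator of Norrin signalling in vessels, rose in sPIA females (log2 change 0.31, SE 0.10, adjusted p = 0.0383, edgeR) and Tspan9 fell (-0.38, SE 0.10, adjusted p = 0.0109). Cd63, a tetraspanin of late endosomes and exosomes, fell in mPIA males (-0.48, SE 0.11, adjusted p = 0.0402). Its change in sPIA males was -0.20 (SE 0.11, adjusted p = 0.496). Without NBC male 4, 0 genes of all tested were called in mPIA males, which holds for each gene named below in that comparison. The median change of the list was -0.01, -0.01, -0.04 and -0.03 in mPIA females, sPIA females, mPIA males and sPIA males, beside medians of all genes between -0.01 and 0.01.

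Among 15 partners of tetraspanins, Itgav and Itgb8, integrin subunits that can pair to activate TGF-beta, rose in sPIA females by 0.43 (SE 0.10, adjusted p = 0.00327, edgeR) and 0.37 (SE 0.13, adjusted p = 0.0496). Itga3, the laminin-binding alpha 3 subunit, fell there (-0.45, SE 0.09, adjusted p = 0.00149). In mPIA males Itgb1, the beta subunit shared by many integrins, fell from 174 to 137 CPM (-0.34, SE 0.08, adjusted p = 0.0391). No partner was called in mPIA females or sPIA males.

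ADAMTS proteases other than Adamts1 went both ways in sPIA females, where 1 of 18 rose and 2 fell beside 16% of all genes called, and 0 were called in the other comparisons with NBC. Adamts3, which processes procollagen and VEGF-C, rose from 53.3 to 72.6 CPM (0.45, SE 0.11, adjusted p = 0.00684, edgeR). Adamts16 fell from 11.2 to 4.26 CPM (-1.40, SE 0.27, adjusted p = 0.00129) and Adamts2, a procollagen protease, from 9.04 to 5.26 CPM (-0.78, SE 0.24, adjusted p = 0.0263). Of 6 ADAMTS-like proteins Papln fell there (-1.72, SE 0.41, adjusted p = 0.00533). Of 7 substrates tested, Acan, the aggrecan of perineuronal nets (0.56, SE 0.19, adjusted p = 0.0404), and the basement membrane gene Nid1 (0.42, SE 0.13, adjusted p = 0.0363) rose in sPIA females, and the brain lectican Bcan fell (-0.25, SE 0.08, adjusted p = 0.0372). Versican (Vcan) had a change of -0.01 (SE 0.10, adjusted p = 0.975). Of 3 inhibitors of metalloproteinases tested, Timp2 fell in sPIA females (-0.32, SE 0.09, adjusted p = 0.0187) and Timp3, the matrix-bound inhibitor of ADAMTS enzymes, fell in mPIA males (-0.49, SE 0.10, adjusted p = 0.018).

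Of 22 further spondins and proteins with thrombospondin repeats, 3 rose and 3 fell in sPIA females, beside 8.12% and 7.86% of all genes, and 0 were called in the other comparisons with NBC. Spon1, the F-spondin of the hippocampus and floor plate, fell (-0.24, SE 0.07, adjusted p = 0.0237, edgeR), as did the Wnt enhancer Rspo2, from 33.0 to 17.1 CPM (-0.95, SE 0.17, adjusted p = 0.000868). The axon guidance gene Sema5a rose from 184 to 263 CPM (0.52, SE 0.10, adjusted p = 0.0008). Spon1 in males had changes of 0.09 (SE 0.08, adjusted p = 0.584) and 0.02 (SE 0.08, adjusted p = 0.945) in mPIA and sPIA.

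Of the 5 other liprins 1 was called, in sPIA females, where Ppfia2, a presynaptic liprin-alpha, rose from 226 to 288 CPM (0.35, SE 0.07, adjusted p = 0.000683, edgeR). Ppfibp1, the closest relative of Ppfibp2, had changes of 0.17 (SE 0.08, adjusted p = 0.167) in sPIA females and -0.10 (SE 0.09, adjusted p = 0.625) and -0.01 (SE 0.09, adjusted p = 0.973) in mPIA and sPIA males. Of 14 liprin partners 3 rose in sPIA females, namely Erc2 (0.28, SE 0.07, adjusted p = 0.00437, edgeR), Rims1 (0.25, SE 0.08, adjusted p = 0.0356) and Erc1 (0.18, SE 0.06, adjusted p = 0.0475). In the other comparisons with NBC 0 were called.

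**Figure D4:**
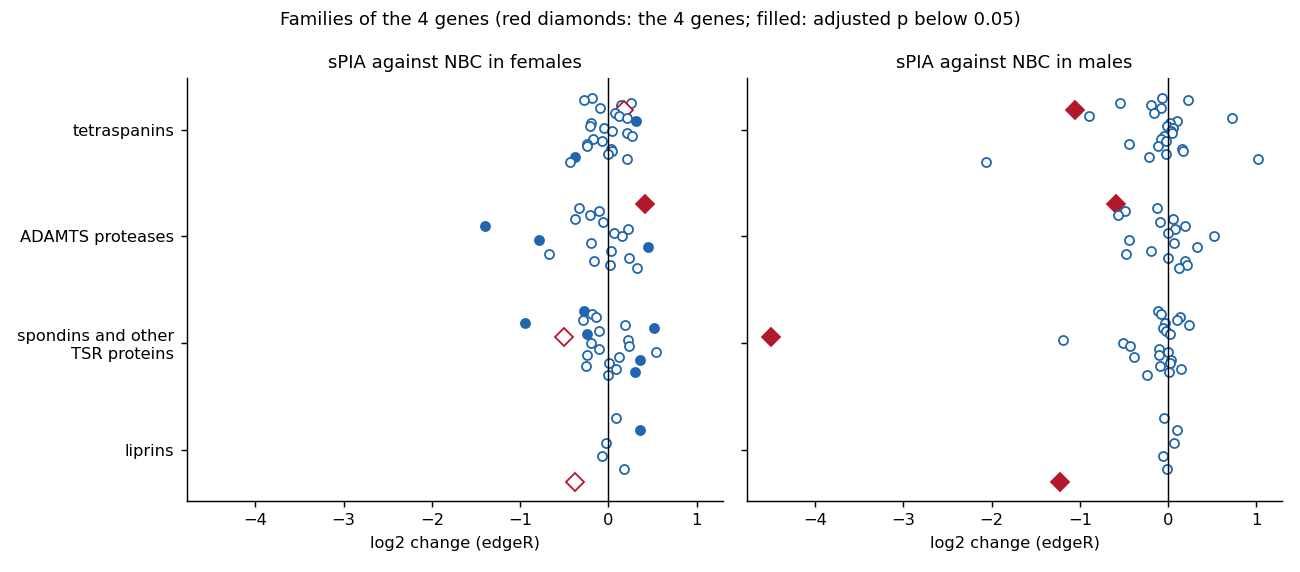
Log2 change of sPIA against NBC (horizontal axis, edgeR) in females (left) and males (right) for 4 families (vertical axis; each point is a gene, red diamonds the 4 genes themselves, filled points past an adjusted p of 0.05). In males the red diamonds, chosen there, are the only filled points, and in females filled points lie on both sides of 0, with Adamts1 at 0.41.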

How the data were processed

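The values are the authors' deposited raw counts of reads for each gene, whole numbers with library totals that differ. RNA was isolated with the RNAqueous kit and libraries followed Illumina TruSeq protocols, per the labels' protocols. FastQC, TopHat2 2.0.13, Subread and edgeR and the build mm10 are named, per the submitters' processing notes; no label states the annotation, the strand setting or how multi-mapping reads were handled. All 23 columns were matched to samples by name.

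One edgeR quasi-likelihood fit (robust, TMM, 6 group means, filterByExpr with minimum count 10 and total 15) covered 15475 genes, with Benjamini-Hochberg adjustment within each comparison at 0.05. Alternatives were other normalizations, filters, tests, left-out libraries, a replicate block and a GC and length correction. Log2 CPM used a prior count of 2. The design text names 4 mice of each sex and group, so each library was read as 1 mouse. The 33 pairs within groups all differed beyond sampling noise (chi-square over its degrees of freedom, 3.09 to 31.3). Positions, GC content and length came from GENCODE M21, with GC and length known for 96.2% of genes tested, and promoter sequences from RefSeq.

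The 4 genes and all lists were chosen with earlier results of these data known. Named beside the 4 genes were up to 3 called genes of each family list, 3 genes just outside the threshold and the 3 most alike to each gene (average log2 CPM at least 1, no predicted models). Ppfibp1, Vcan, the markers Slc17a7, Ttr, Folr1, Kcnj13 and Aqp1 and the genes overlapping Cd82 or Ppfibp2 were named outside that rule. The fit was first tested on simulated data. Versions were edgeR 4.0.16 and limma 3.58.1 under R 4.3.3, with DESeq2 1.42.0 as an alternative test. Python 3.11.15 drew the plots through matplotlib 3.10.9.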

Additional observations from a re-analysis of the deposited data

Results flagged for a closer look

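Adamts1 differed from NBC in opposite directions in the sexes in severely anemic pups. Its log2 change was 0.41 in females, where 4 of 4 bled libraries lay above every control, and -0.59 in males, where 4 of 4 lay below every control. The male change minus the female one was -1.01 (SE 0.15, edgeR). It is a description with no p, since the male values had chosen the gene. Severe anemia cannot be told apart from the S number series in either sex, nor from the code series in females. In the female comparison 16% of all genes were called.

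In 4 of 20 groups of 4 libraries a single library lay far from the others by Dixon's criterion, where chance gives about 1 in 20. The Spon2 flag is set by counts of 0 and is not comparable with that rate. Cd82 was at 5.68 CPM in mPIA female 4 and at 3.93 CPM in mPIA male 2, each the lowest of its group. Adamts1 was at 25.5 CPM in mPIA female 3, the highest of its group and the most deeply sequenced library. Spon2 was at 0.101 CPM in sPIA male 3, which held 2 counts where the other libraries of the group held 0.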

How the results depend on the processing

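In females, none of the genes fitted was called in mPIA under any of the 19 alternatives (Spon2 was fitted in 17), and Adamts1 was called in sPIA against mPIA under all 18 (log2 change 0.33 to 0.52). Against NBC in sPIA females it was called under 17 of 18 (0.35 to 0.46), with 0 of 4 called without the libraries of high Ttr. In mPIA males the number inside the threshold was 0 to 4 over the fits that left out a mouse. It was 0 when only the groups compared were fitted (where Spon2 failed the filter), 0 with the choroid plexus covariate and 0 without the libraries of high Ttr. In sPIA males it was 0 to 4 over the fits that left out a mouse, 0 with only the groups compared, 2 with the covariate and 0 without those libraries. The male changes stayed negative under every alternative run, which the choice of the genes favours and which is no separate check. In mPIA females the small changes turned sign for Cd82 without NBC female 2 (0.0065; range over left-out mice -0.16 to 0.0065) or without the libraries of high Ttr (0.0084). They also turned for Adamts1 without mPIA female 3 (-0.10, range to 0.073) and for Ppfibp2 without mPIA female 4 (0.061, range from -0.19). The cause was not tested. Over all genes, removing each library's trend with GC and length left 1173 genes called in place of 2472 for sPIA against NBC females and 1386 in place of 2499 for sPIA against mPIA females. Adamts1 stayed called in the former (0.40, adjusted p = 0.0106, edgeR). The all-gene counts of 101 in mPIA and 30 in sPIA males were 381 and 155 by DESeq2, and ranged from 0 to 1124 and from 4 to 249 over left-out mice. In the fit of mPIA and NBC females with the number that opens the library code as a block, Spon2 failed the filter.

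In no comparison did every same-numbered pair of libraries deviate together with r above 0.1 (-0.14 to 0.25 over 22 pairs, above 0.1 in 5), so the numbers were not taken to pair the samples. In mPIA against NBC females, where same-numbered libraries also share the number that opens their code, r was 0.25, -0.02, 0.20 and 0.24, and 3 of 4 pairs correlated best with their own number, a hint from the data. With the replicate number as a block, 0, 1 and 1 genes were called in the 3 female comparisons and 3 and 4 in mPIA and sPIA males, where Spon2 in mPIA males had adjusted p = 0.0691 (edgeR). Depth limits Spon2, at 0 to 34 counts per library.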

Other observations

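Amotl1, which lay just outside the threshold in males and was the gene most alike to Adamts1, also rose in sPIA females (log2 change 0.36, adjusted p = 0.00931, edgeR). Cbl and Frem1, the others just outside, had changes of 0.16 (adjusted p = 0.187) and 0.25 (adjusted p = 0.49) there. In mPIA females the changes of these 3 genes were 0.04, -0.02 and -0.10, each with adjusted p = 1. They were looked at in females after their male values were known. Amotl1 was found alike to Adamts1 over libraries that include these females, so its rise there is not independent of that pick. In sPIA against NBC females 8.12% of all genes were called higher.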
